A study of Mus musculus with 8 samples.

Results

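Telomerase and shelterin transcripts were followed in peritoneal mast cells (PMCs) as a set of 10 genes, picked by name out of the 55359 genes in the deposited count table. The set holds 4 telomerase genes (Tert, Terc, Dkc1, Nop10), 5 shelterin genes (Terf1, Terf2, Pot1a, Tinf2, Acd) and the chromatin remodeller Atrx. All 10 were found in the table, and 9 of them passed the filter on low counts, which Tert did not pass. RNA was sequenced from 8 untreated cultures that derive from wild-type mice on a mixed C57BL/6x129/Sv background. Of these, 6 were primary WT PMCs, 3 from female and 3 from male mice, whose age is not given in the sources used here. The other 2 were PMC-303 and PMC-306, lines that arose spontaneously in ageing, neglected PMC cultures and have 1 library each. The study reports loss of Cdkn2a and Arf transcripts in both lines and a heterozygous chromosomal deletion in PMC-306. The lines were kept with less fetal calf serum and less stem cell factor than the primary cultures, so that medium and transformation cannot be told apart in these libraries. The study also grew PMC-306 in the primary medium. It reports unchanged Cdkn2a, Arf, protease and Mrgprb2 transcripts and less KIT on the surface, and gives no values for the genes of this set. The labels do not say whether each library is a culture of a different mouse or litter, and p-values measure the spread between these libraries.

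Telomerase is a reverse transcriptase that adds DNA repeats to chromosome ends by copying a short template within its own RNA. TERT is the catalytic protein and Terc the RNA, while dyskerin (Dkc1) and NOP10 belong to the box H/ACA proteins that bind the end of that RNA and keep it stable. Shelterin is the protein complex that covers telomeric DNA and hides it from DNA repair, and ATRX, which deposits histone H3.3 at telomeres, is best known for its loss in tumours that lengthen telomeres by recombination instead of telomerase.

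The libraries held between 15918758 and 24180226 estimated counts, so that 3 counts, the most that a count of 0 allows, are between 0.123 and 0.187 CPM (counts scaled to a common library size), counting error only. Mast cell markers were present in all libraries: the mast cell protease gene Cpa3 had 23601 CPM in line PMC-303 and 22835 CPM in line PMC-306, against 21762 to 38179 CPM in the primary cultures. Of 7 mast cell markers none rose and 2 fell in the lines, Kit and Fcer1a, with an adjusted p under 0.05 by limma. Among all genes tested, 18.3% rose and 15.5% fell. Markers of B cells, T cells and fibroblasts summed to at most 0.255 CPM per list and library. Of 7 macrophage markers, Adgre1 was highest in PMC-306 (426 CPM) and had 2.10 CPM in line PMC-303. It had 46.4 CPM in female culture 2, 25.3 CPM in male culture 3 and 3.37 to 4.35 CPM in the other primary cultures. Cd68 had 4.73 CPM in line PMC-303 and 13.9 CPM in line PMC-306. Its primary median was 3.503 CPM, with a range of 1.48 to 17.8 CPM. Lyz2 lay below all primary cultures, with 0.247 CPM in line PMC-303 and 1.13 CPM in line PMC-306. Primary WT PMCs had 1.18 to 17.97 CPM of Lyz2. Its log2 difference of -2.34 did not pass 0.05 (adjusted p = 0.0955 by limma). C1qa, C1qb, Csf1r and Cd14 had at most 0.230 CPM in any library. The summed macrophage list had 7.16 CPM in PMC-303, 441 CPM in line PMC-306, most of it Adgre1, and 7.22 to 68.7 CPM in primary WT PMCs.

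The RNA component of telomerase is shown first, because its identity decides how its counts can be read. The authors' annotation holds this RNA as 2 gene models on the minus strand of chromosome 3 that end at the same base. The Terc model (ENSMUSG00000118406, 397 bases) runs from 96321753 to 96322149 of GRCm39. The model named Telomerase-vert (ENSMUSG00002075569, 423 bases) runs from 96321753 to 96322175 and begins 26 bases further upstream. The first 100 bases of each, 5′ to 3′ from the GRCm39 genome, are printed with the template for the telomere repeat in capitals.
Terc: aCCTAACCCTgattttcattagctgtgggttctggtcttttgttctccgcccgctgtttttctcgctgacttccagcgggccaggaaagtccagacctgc
Telomerase-vert: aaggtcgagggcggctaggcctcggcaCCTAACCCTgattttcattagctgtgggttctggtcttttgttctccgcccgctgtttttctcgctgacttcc
The last 60 bases are identical in both models, and the ACA box that gives the H/ACA class its name is in capitals.
Shared end: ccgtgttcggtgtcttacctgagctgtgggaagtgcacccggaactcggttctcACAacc
Apart from the 26 additional bases the models have the same sequence, so that a read that does not reach these bases fits either of them.

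The division of estimated counts between these models varied among the primary cultures. The Terc model had 43.5, 51 and 0 counts in female cultures 1 to 3 and 54, 33 and 21.6 counts in male cultures 1 to 3. In female culture 3, where Terc was at 0, Telomerase-vert had 48 counts, and in female culture 2 and male cultures 1 and 2, where Terc took everything, Telomerase-vert was at 0. Both models were counted in female culture 1, male culture 3 and both lines. Summed over both models, the primary cultures had between 33 and 54 counts. Relative to the mean, the spread of CPM over primary cultures was 58.0% for the Terc model (SD over mean, n = 6) and 10.9% for the sum. A second model of the same name, on chromosome 3 from 30649495 to 30649906, had 0 counts in every library. The sum is therefore used as the level of telomerase RNA, a choice made after the counts were seen.

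**Figure D1:**
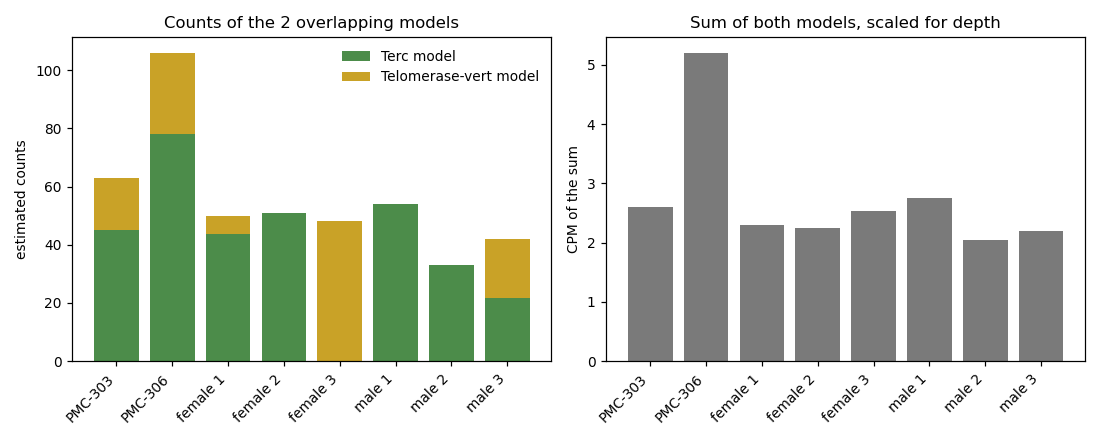
Left, estimated counts of the Terc and Telomerase-vert models stacked for each of the 8 libraries, and right, the CPM of their sum. The counts change places between the models in female culture 3, where Terc had 0 and Telomerase-vert 48 counts, while the sum stayed at 2.05 to 2.76 CPM in primary WT PMCs and reached 5.21 CPM in line PMC-306.

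The summed telomerase RNA was high in 1 of the lines. PMC-306 had 5.21 CPM and PMC-303 2.59 CPM. Primary WT PMCs had 2.30, 2.24 and 2.53 CPM in female cultures and 2.76, 2.05 and 2.20 CPM in male cultures. PMC-306 lay above every primary culture, at 2.22 times their mean of 2.35 ± 0.255 CPM (SD, n = 6), and the 95% counting interval of its ratio to the pooled primary counts, from exact binomial limits, was 1.75 to 2.78. PMC-303 was within the primary range. In bulk RNA, more cells that express a gene and more RNA per cell cannot be told apart. With both lines in 1 group, the log2 difference was 0.63 (SE 0.27, adjusted p = 0.1001 by limma), which did not pass 0.05. For the Terc model alone it was 1.16 with a much larger error (SE 1.18, adjusted p = 0.484 by limma).

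Tert, the gene of the catalytic subunit (ENSMUSG00000021611, chromosome 13, 73775006 to 73800485, plus strand), was close to the limit of detection in every culture. It had 0 counts in PMC-303 and 2 counts in PMC-306. In primary WT PMCs it had 7, 7 and 3 counts in female and 8, 2 and 6 counts in male cultures, together 33 counts. Scaled for depth, both lines, with 0 and 0.0982 CPM, lay below male culture 2, the lowest primary culture (0.124 CPM). Primary WT PMCs averaged 0.273 ± 0.109 CPM (SD, n = 6). Set at 3 counts in PMC-303, Tert was 2.21-fold lower than the primary mean. This value leaves out the counting error of the 33 primary counts, so that it is no firm lower limit. In PMC-306 the ratio to the pooled primary cultures was 0.352, with a 95% counting interval from 0.0409 to 1.38 (exact binomial), so that a difference of this line alone was not detectable at this depth. For both lines pooled the ratio was 0.160, with a counting interval from 0.0187 to 0.627. Both intervals treat reads as independent and leave out the spread between cultures. An exact permutation test of CPM over the 8 libraries gave p = 0.0714 (two-sided), the smallest p that 2 against 6 libraries allow. Without the filter on low counts, limma gave a log2 difference of -1.35 (SE 0.46, adjusted p = 0.0902 over 30847 genes), a value that depends on the offset added to 0. The reads were also scattered over gene models. The full-length coding transcript Tert-201 took 4.80 counts in female culture 1, 7 in female culture 2 and 7 in male culture 1 and none in the other libraries, while the 2 counts of PMC-306 went to Tert-205, a model with a retained intron.

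Compared per length, in the deposited TPM values, which are scaled for transcript length, the members of the set covered a wide range of levels in primary WT PMCs. Atrx stood highest with 102 ± 17.3 TPM (SD, n = 6), followed by Nop10 with 28.6 ± 2.61 TPM and Dkc1 with 22.1 ± 3.58 TPM. The range of Nop10, 24.9 to 31.3 TPM, overlapped that of Dkc1, 17.9 to 26.6 TPM. Below them the shelterin genes Terf2 (11.2 ± 0.815 TPM), Acd (10.4 ± 1.37 TPM) and Tinf2 (10.04 ± 0.949 TPM), the summed telomerase RNA (9.61 ± 1.69 TPM) and Pot1a (8.003 ± 0.849 TPM) formed a group of near levels, in which each neighbour in this order overlapped the next. Terf1 followed with 5.14 ± 1.203 TPM, and its highest culture, with 6.21 TPM, stayed below the lowest of Pot1a, with 6.91 TPM. Tert was lowest with 0.120 ± 0.0686 TPM (SD, n = 6). Total RNA libraries hold telomerase RNA that lacks a poly(A) tail, but the length of so short an RNA makes its TPM uncertain beside those of long mRNAs.

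The comparison of both lines with primary WT PMCs asks what spontaneously transformed cultures share that sets them apart from primary cultures. Among the 9 members of the set that could be tested, 6 rose in the lines and none fell, with an adjusted p under 0.05 by limma. These were Dkc1 and the 5 shelterin genes of the set, and their log2 differences of CPM lay between 0.36 and 0.89. Over all 14529 genes tested, 18.3% rose and 15.5% fell. In 7 of the 10 genes, the same 6 and Nop10, both lines lay above all 6 primary cultures, as did 23% of all genes tested. Tert was the only gene of the set with both lines below all primary cultures, as were 20.1% of the genes tested. The median log2 difference was 0.62 over the 9 members tested and -0.01 over all genes tested. Of 4920 genes called, 54.2% were higher in the lines, and this share was 67.2% with library totals and 70.9% with deposited TPM, which moved the median of all genes to 0.13 on the log2 scale. No member called higher changed its sign under any of the scalings.

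**Figure D2:**
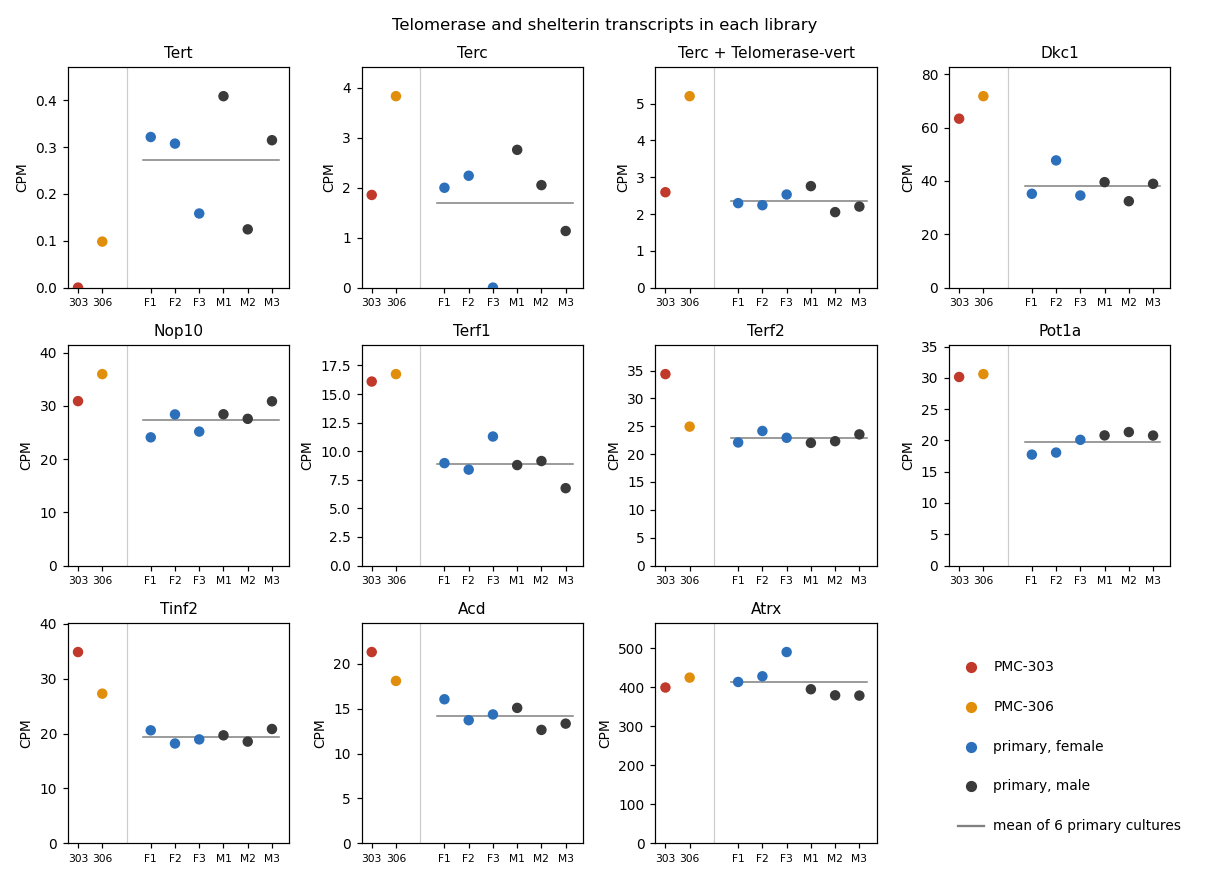
CPM of each gene of the set in the 8 libraries, each panel with its own axis from 0, the lines first, then female (F) and male (M) primary cultures. The grey line is the mean of the 6 primary cultures, and both lines stand above every primary culture for Dkc1, Nop10, Terf1, Terf2, Pot1a, Tinf2 and Acd, and below them for Tert.

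Dkc1 encodes dyskerin, the pseudouridine synthase of H/ACA particles, and lies on the X chromosome (ENSMUSG00000031403, 74139460 to 74155456, plus strand). It had 63.3 CPM in line PMC-303 and 71.8 CPM in line PMC-306. Primary WT PMCs ranged from 32.4 to 47.7 CPM with a median of 37.1 CPM. Both lines were thus well above the highest primary culture, female culture 2. The log2 difference was 0.84 (SE 0.14, adjusted p = 0.00264 by limma), and it remained past the threshold in all 20 alternatives tried, in which it ranged from 0.75 to 1.01.

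Nop10, a small protein of the same particle (ENSMUSG00000027133, chromosome 2, 112092271 to 112093764, plus strand), had 30.9 CPM in line PMC-303 and 35.9 CPM in line PMC-306. The primary cultures had 24.1 to 30.8 CPM with a median of 27.96 CPM. PMC-303 hardly exceeded the highest primary culture, male culture 3. The log2 difference of 0.29 (SE 0.11) did not pass the threshold (adjusted p = 0.0814 by limma), although it did with library totals (0.40, adjusted p = 0.0208) and with deposited TPM (0.43, adjusted p = 0.0491), where the difference from the median of all genes was 0.30 each time.

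The partners of dyskerin and NOP10 in the mature particle are NHP2 and GAR1. Nhp2 had 41.8 CPM in both PMC-303 and PMC-306 and 26.7 to 33.6 CPM in primary WT PMCs, and it rose by 0.52 on the log2 scale (SE 0.10, adjusted p = 0.00382 by limma). Gar1 had 9.84 and 8.79 CPM in the lines and 3.23 to 7.20 CPM in primary WT PMCs, a log2 difference of 0.75 that its wide primary range left short of the threshold (SE 0.28, adjusted p = 0.0731 by limma). Of 14 genes for proteins that assemble, process or bind telomerase, Nhp2 and Gar1 included, 3 rose and 2 fell, with a median log2 difference of 0.24, and these shares are near the 18.3% and 15.5% of all genes tested. The ATPase gene Ruvbl2, which serves the assembly of the enzyme, rose by 0.70 (adjusted p = 0.00199 by limma), and Zcchc8, of the nuclear exosome targeting complex, rose by 0.52 (adjusted p = 0.00122 by limma). Tep1, a protein first found bound to telomerase RNA and part of vault particles, fell from 78.7 ± 8.19 CPM (SD, n = 6) to 54.75 and 62.07 CPM, and Nat10, an RNA acetyltransferase, was the other gene that fell, with an adjusted p = 0.0485 by limma. Ruvbl1 (0.29, adjusted p = 0.0707 by limma) and the poly(A) polymerase gene Tent4b (-0.05, adjusted p = 0.692 by limma), the most abundant genes of the list that did not pass, had small differences. The sister class of particles, box C/D, has its own proteins. All 4 of its genes measured (Fbl, Nop56, Nop58, Snu13) rose, as did 18.3% of all genes tested. Their median log2 difference was 0.70, with the largest for Nop56 (0.92, adjusted p = 0.0162 by limma).

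The shelterin proteins TRF1 and TRF2, encoded by Terf1 and Terf2, bind double-stranded telomeric DNA. Terf1 (ENSMUSG00000025925, chromosome 1, 15875840 to 15914280, plus strand) had 16.1 CPM in line PMC-303 and 16.7 CPM in line PMC-306. Primary WT PMCs had between 6.77 and 11.3 CPM with a median of 8.87 CPM. The lines were close to each other and above female culture 3, the highest primary culture. Terf1 thus had the largest difference among the 6 genes of the set that were called (log2 difference 0.89, SE 0.17, adjusted p = 0.00514 by limma), and it stayed past the threshold in all 20 alternatives, from 0.78 to 1.30.

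Terf2 (ENSMUSG00000031921, chromosome 8, 107796032 to 107823206, minus strand) had 34.4 CPM in line PMC-303 and 24.9 CPM in line PMC-306. Primary WT PMCs were very alike, from 22.0 to 24.2 CPM with a median of 22.6 CPM. PMC-303 was far outside this range and PMC-306 only just above it. The log2 difference of both lines was 0.36 (SE 0.12, adjusted p = 0.0463 by limma). It rested on PMC-303, since without this line it was 0.13 (adjusted p = 0.356 by limma), and leaving out any 1 of the 6 primary cultures also ended the call, with adjusted p-values between 0.0571 and 0.0800. For PMC-303 alone the log2 fold was 0.59 and for PMC-306 0.13, beside -0.06 to 0.10 for each primary culture against the other 5. The median log2 fold of all 698 chromosome 8 genes with at least 1 CPM was 0.22 in PMC-303, against 0.02 over all its genes, and it was 0.04 in PMC-306. The study describes an additional copy of this chromosome in part of the cells of that line. Its part in the value of Terf2 was not tested.

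POT1 binds the single-stranded end of telomeric DNA, and mice have a pair of genes for it, Pot1a and Pot1b. Pot1a (ENSMUSG00000029676, chromosome 6, 25743510 to 25809265, minus strand) had 30.1 CPM in line PMC-303 and 30.6 CPM in line PMC-306. In primary WT PMCs it had 17.7 to 21.3 CPM with a median of 20.4 CPM. The lines were nearly equal and well clear of the primary cultures. The log2 difference was 0.62 (SE 0.10, adjusted p = 0.00209 by limma), with a range from 0.53 to 0.85 over 20 alternatives that all stayed past the threshold. Pot1b did not follow it. Pot1b had 12.5 CPM in line PMC-303 and 14.3 CPM in line PMC-306, which lay at the lower end of a wide primary range from 12.6 to 24.0 CPM, and its log2 difference was -0.49 (SE 0.27, adjusted p = 0.194 by limma). The difference between the changes of both genes was not tested. The genes are related in sequence, and reads could have been divided between them.

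Tinf2 encodes TIN2, which links TRF1 and TRF2 to the other subunits (ENSMUSG00000007589, chromosome 14, 55912145 to 55919475, minus strand). It had 34.8 CPM in line PMC-303 and 27.3 CPM in line PMC-306. The primary cultures had 18.2 to 20.8 CPM with a median of 19.3 CPM. Both lines were above all primary cultures, PMC-303 more so. The log2 difference was 0.66 (SE 0.11, adjusted p = 0.00253 by limma), and in 20 alternatives, all past the threshold, it was 0.49 to 0.87.

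Acd encodes TPP1, which joins POT1 to TIN2 and recruits telomerase (ENSMUSG00000038000, chromosome 8, 106422489 to 106428118, minus strand). It had 21.3 CPM in line PMC-303 and 18.1 CPM in line PMC-306. Primary WT PMCs had 12.6 to 16.031 CPM with a median of 14.02 CPM. The lines lay above female culture 1, the highest primary culture. The log2 difference was 0.47 (SE 0.12, adjusted p = 0.0171 by limma). Without PMC-303 it was 0.36 and no longer passed (adjusted p = 0.128 by limma). In PMC-303 alone the log2 fold of Acd was 0.58, beside the chromosome 8 median of 0.22 given above, whose part in it was not tested.

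The sixth subunit of shelterin, RAP1, is encoded by Terf2ip, also on chromosome 8 (112737991 to 112747851). It had 20.9 CPM in line PMC-303 and 16.6 CPM in line PMC-306, while primary WT PMCs had 20.9 to 24.0 CPM. PMC-303 was only marginally below the lowest primary culture. The log2 difference of -0.30 (SE 0.10) did not pass the threshold (adjusted p = 0.0533 by limma), nor did any difference of the remaining shelterin genes Terf2ip and Pot1b.

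**Figure D3:**
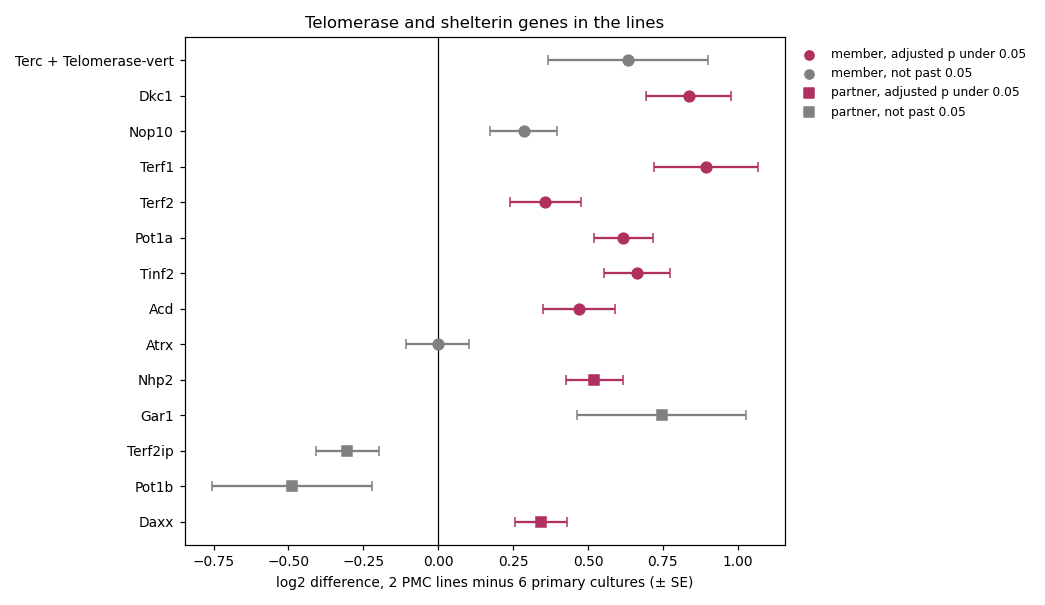
Log2 difference of CPM between the 2 lines and the 6 primary cultures with its standard error, for the set (circles, Terc as the sum of both models, Tert left out) and for 5 partner genes (squares). Dkc1 and the 5 shelterin genes of the set are right of 0 and past the threshold, Atrx is at 0, and Terf2ip and Pot1b are left of 0 and not past it.

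Atrx (ENSMUSG00000031229, X chromosome, 104841131 to 104973014, minus strand) was the most abundant gene of the set. It had 399 CPM in line PMC-303 and 425 CPM in line PMC-306. In primary WT PMCs it had 378 to 490 CPM with a median of 404 CPM. Both lines were within the primary range. The log2 difference was -0.00 (SE 0.11, adjusted p = 0.989 by limma), and it lay between -0.11 and 0.12 in the alternatives. Transcripts of Atrx were thus present in both lines at primary levels. The canonical transcript of Atrx held 70.7% and 71.6% of the counts of the gene in PMC-303 and PMC-306, and 65.2% to 72.7% in the primary cultures.

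Daxx, the H3.3 chaperone that works with ATRX, had 27.5 CPM in line PMC-303 and 25.2 CPM in line PMC-306 against 18.9 to 21.9 CPM in primary WT PMCs, and rose by 0.34 on the log2 scale (SE 0.09, adjusted p = 0.0166 by limma). Daxx belongs to a list of 13 partners of ATRX and genes tied to alternative lengthening of telomeres, of which 11 rose and none fell, with a median of 0.50. The shares over all genes tested were 18.3% and 15.5%. Large differences were those of the histone chaperone gene Asf1b (log2 difference 2.92, adjusted p = 0.000256 by limma), Cbx5, which encodes the heterochromatin protein HP1 alpha (1.69, adjusted p = 0.000141 by limma), and the helicase gene Fancm (1.28, adjusted p = 0.000266 by limma). Slx4 and Smarcal1, the most abundant of the genes that did not pass, had -0.12 and 0.15. Several genes of this list serve DNA replication or repair throughout the genome.

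Of 18 genes for the replication and processing of telomere ends, 12 rose and none fell, beside 18.3% and 15.5% of all genes tested. Their median log2 difference was 0.72. The largest differences were those of Prim1 (3.08, adjusted p = 0.000495 by limma) and Pola1 (1.90, adjusted p = 0.000266 by limma), both of the primase complex that starts DNA synthesis, and of the nuclease genes Exo1 (2.59, adjusted p = 0.00117 by limma) and Dna2 (2.37, adjusted p = 0.000494 by limma). Prim1 had 49.1 and 39.6 CPM in the lines, while primary WT PMCs had 5.43 ± 1.72 CPM (SD, n = 6). The most abundant genes that did not pass were Wrn, a helicase (0.04, adjusted p = 0.703 by limma), and Tnks, the tankyrase that modifies TRF1 (-0.12, adjusted p = 0.303 by limma). Wrn had 82.7 CPM in line PMC-303 and 69.6 CPM in line PMC-306, on opposite sides of the primary range of 70.6 to 77.2 CPM.

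Proliferation genes moved with these lists. All 6 measured rose, as did 18.3% of all genes tested, and their median log2 difference was 3.504. Their summed level was 2536 CPM in line PMC-303 and 2128 CPM in line PMC-306 against 179 to 338 CPM in primary WT PMCs. Mki67, a marker of dividing cells, rose by 3.77 (adjusted p = 0.000667 by limma). The part of this difference in division in the values of the telomerase and shelterin genes was not tested.

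**Figure D4:**
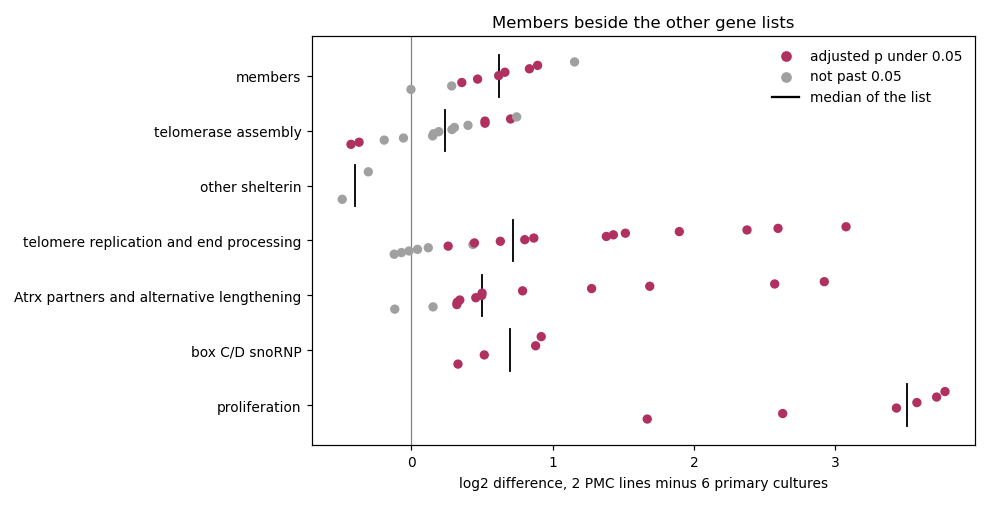
Log2 difference of CPM between the 2 lines and the 6 primary cultures for each gene that could be tested, 1 row per list, red where the adjusted p is under 0.05, with a black line at the median of the list and Terc as its own model. The members have a median of 0.62, between telomerase assembly (0.24) and telomere replication (0.72), and proliferation genes lie furthest from 0.

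The estimated counts of transcripts describe how much of a gene count was assigned to coding models. Of the counts of Acd, 26.6% in PMC-303, 36.4% in PMC-306 and 15.9% to 32.1% in primary WT PMCs were assigned to its coding transcript Acd-201. The other counts went to models with a retained intron or marked for nonsense-mediated decay, so that the gene counts of Acd are mostly not those of the coding transcript as annotated. For Terf2, coding transcripts held 91.3% in PMC-303, 85.1% in PMC-306 and 88.2% to 93.2% in primary WT PMCs. PMC-306 stood just below the primary range. The canonical transcript of Terf2 had 0 counts in PMC-306, 250 counts in PMC-303 and 99.8 to 212 counts in primary WT PMCs, while Terf2-204, a coding transcript of nearly the same length (2695 against 2698 bases), had 305.6 counts in PMC-306. With models so alike, the assignment of reads is uncertain, as it is for the 2 models of Terc. In Terf1 the 2 coding transcripts changed places as well, since the canonical Terf1-203 held between 14.4% and 56.9% of the counts among primary cultures. It held 25.4% in PMC-303 and 11.9% in PMC-306, the latter below every primary culture. For Tinf2, coding transcripts held 78.0% in PMC-303, above the primary range of 51.8% to 74.0%, and 68.6% in PMC-306, within it. For Dkc1, Dkc1-201 had 85.1% to 91.6% of the counts in primary WT PMCs, 86.3% in PMC-303 and 85.5% in PMC-306. All these shares are descriptions of estimates without a test.

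Sex of the primary cultures was examined because Dkc1 and Atrx are X-linked. The lines differed from each other in transcripts that mark sex. Xist, expressed in female cells, stood at 900 CPM in line PMC-303 and at 0.147 CPM in line PMC-306. Female cultures had 1468 to 2055 CPM and male cultures 0.105 to 0.869 CPM. Summed Y-linked genes reached 1.25% of the male mean in line PMC-303 and 98.7% in line PMC-306. The study describes a male karyotype of PMC-306. The part of this difference in the values of Dkc1 and Atrx was not tested. No member of the set passed the test between female and male primary WT PMCs (adjusted p = 0.9995 by limma for each of those tested), and 0.0438% of 13710 genes were called. Atrx had a female minus male log2 difference of 0.21 (SE 0.08), with 413, 428 and 490 CPM in female and 395, 379 and 378 CPM in male cultures, and was not called. For Dkc1 it was 0.08 (SE 0.15), and the sexes overlapped.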

How the data were processed

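RNA from 2 PMC lines and 6 primary WT PMC cultures was analysed, grouped by the labels. According to the study, stranded total RNA libraries were trimmed with Trim Galore 0.6.7, aligned to GRCm39 with STAR 2.7.9a and quantified with Salmon 1.5.2; whether counting used strand is not given in the sources used here, so that Acd, Tinf2 and Dkc1, which overlap genes on the other strand, carry that uncertainty. Estimated counts of genes and transcripts were deposited without normalization, beside TPM values that the authors' pipeline scaled for length and depth. The deposited tables had been altered by a spreadsheet program: 3.37% of gene count cells, 6 of them in these genes, and 20.8% of TPM cells were restored. The point was set to fit the counts in 9313 TPM cells, so that TPM is not independent of counts there. Counts were scaled to CPM by TMM. Limma 3.58.1 (R 4.3.3) was fitted to log2(CPM + 0.1), with a trend of variance on mean level, over all genes with about 10 counts in enough libraries and 15 in total, with Benjamini-Hochberg adjustment. Because cells had been rewritten as text, the tables were not treated as count tables and this test took the place of a count model. On simulated libraries, 100 of 100 genes changed by 1 and 100 of 100 changed by 2 on the log2 scale were recovered for the lines among 14169 genes, with 7 false calls. Beyond counting error, the spread between simulated libraries was fixed beforehand at 1 value for all genes, not taken from the data. Only genes with higher counts than Tert and Terc were changed. Recovery at the log2 differences of the called members, 0.36 to 0.89, was not simulated. Named genes were the members, Terf2ip, Pot1b, Nhp2, Gar1, Daxx and, per list, up to 4 genes with the largest called difference (mean of at least 1 CPM, groups apart) and up to 2 abundant genes that did not pass. Nat10, Xist, the Y-linked genes and genes named for markers were added after their values were seen. The values of 1 gene that this rule names are not reported here. Members and lists were chosen with earlier results of these data known. Scalings, offsets, filters, voom weights, TPM and left-out libraries were tried as alternatives. Coordinates and sequences come from GENCODE release M39 on GRCm39, which held 98.9% of the deposited genes.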

Additional observations from a re-analysis of the deposited data

Results flagged for a closer look

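Among the 6 primary WT PMC cultures, 16 genes (the set, the summed telomerase RNA and 5 partners) were examined for a single culture standing apart from the rest, and 1 was found, where chance gives about 0.8. Terf2ip was lowest in male culture 3, with 20.9 CPM, while the other primary cultures had at least 23.0 CPM. For Wrn and Adgre1, the lines fell on opposite sides of all primary cultures. Wrn had 82.7 CPM in line PMC-303 and 69.6 CPM in line PMC-306, the latter just below the lowest primary culture (70.6 CPM). Adgre1 had 2.10 and 426 CPM. Neither gene is among the 16 above. The number that chance gives for this pattern was not worked out, so that no conclusion is drawn from these genes. With 1 library each, no test of PMC-303 against PMC-306 was made.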

How the results depend on the processing

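The number of genes called in the lines, 4920, was 2146 against the 3 female and 3031 against the 3 male primary cultures only, with fewer samples in each fit, and 3847 to 5072 otherwise except with TPM, where it was 3311. Dkc1, Terf1, Pot1a and Tinf2 kept their direction and their call under 20 alternatives each. Terf2 passed the threshold in 9 of 20, and its log2 difference without 1 library was 0.13 to 0.59. Beside the settings named above, it was not called without the filter (adjusted p = 0.0890 by limma), with TPM (0.0507) or against 1 sex alone (0.216 and 0.165), and Acd was not called against 1 sex alone (0.122 and 0.0621). Atrx changed its sign with library totals (0.11, also with the Terc models summed, 0.11), with TPM (0.12), against male primary cultures (0.10) and when 1 library was left out (-0.047 to 0.050). The female minus male difference of Dkc1 also changed its sign when 1 culture was left out (-0.080 without female culture 2 and -0.01 without male culture 2). The replicate block left 5 genes called between the sexes in place of 6. The labels do not say what a shared number marks. Correlations of same-numbered cultures were 0.41, -0.22 and 0.28, and those of other-numbered cultures lay between -0.59 and 0.42. With 3 cultures per sex they cannot decide whether the numbers pair the cultures. Shares of canonical transcripts by TPM differ in unit and moved for most genes. Tert was not recomputed for single lines, being at the limit set by 3 counts. Depth limits Tert and the telomerase RNA most. Summing the models of Terc was chosen after seeing the data.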

Other observations

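Pot1b, which is no member of the set, fell into separate levels among primary WT PMCs. It had 12.6 and 13.8 CPM in female cultures 2 and 3 and 24.0, 20.6, 22.0 and 23.4 CPM in female culture 1 and male cultures 1 to 3. The 2 lines, with 12.5 and 14.3 CPM, were near the lower values. The transcript Pot1b-204, marked for nonsense-mediated decay, had 0 counts in female cultures 2 and 3, 83.0 counts in female culture 1 and 55.9, 44.5 and 109 counts in male cultures 1 to 3. In PMC-303 it had 5.98 and in PMC-306 36.2 counts. The canonical Pot1b-201 took 75.2% and 76.5% of the counts in female cultures 2 and 3, 76.4% and 69.7% in PMC-303 and PMC-306 and 36.2% to 47.3% in the other primary cultures. The labels give no feature that separates these cultures, and no cause was tested.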
